A study of Sus scrofa with 2 samples.

Results

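The homeobox and otic patterning factors are 63 genes of the HOXA, HOXB, HOXC, HOXD, sine oculis (SIX2, SIX4 and SIX6), EYA, PAX, GATA, LMX1, PBX, MEIS, OTX, DLX, MSX and PITX families. The rule that picks them uses gene names and no expression value, and was applied to 15863 named genes on 27622 features. Within the PAX family PAX3 was left out, and of the GATA family only GATA2 and GATA3 were taken. RNA came from the lateral wall of the cochlea, dissected from Rongchang pigs. This wall contains the stria vascularis (SV), its secretory epithelium, and other tissue as well. The series holds 1 library per genotype, MITF R/r and MITF r/r, each from pig tissue. MITF is the transcription factor that drives the melanocyte lineage, and r is a natural regulatory allele of it carried by deaf albino pigs. The R/r control is a heterozygote and carries 1 r allele, so that no library without r was compared. The sample labels give postnatal day 1 for both libraries, whereas the study's text places them before birth.

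These genes encode transcription factors and their partners that give cells their position in the embryo. Sine oculis homeobox proteins and the EYA proteins act together in the placode that forms the inner ear, and GATA3, LMX1A, PAX2 and PAX8 are needed for a normal cochlea or otic vesicle. HOX genes lie in 4 clusters and are used along the body axis in the order of their paralogue groups, with low groups reaching the hindbrain and pharyngeal arches and high groups confined to the trunk and limbs. PBX and MEIS proteins bind DNA with HOX proteins and with other homeobox factors.

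Expression was given as RPKM, in which the reads on a gene are divided by its exon length and by the depth of its library. The read numbers behind the RPKM values were worked out from the values themselves, with library totals of 15829244 reads for R/r and 14258672 reads for r/r. A single read on 1 kilobase of exon was worth 0.0632 RPKM in the R/r library and 0.0701 RPKM in the r/r library. Ratios are r/r over R/r on the log2 scale, without a pseudocount, and each has a 95% Clopper-Pearson interval that covers counting error only. With 1 library per genotype there was no replicate check, no p-value is given, and every difference is between 2 libraries rather than between genotypes. In a bulk tissue, fewer cells of a type and less RNA per cell cannot be told apart.

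Nearly the same factors were expressed in both libraries, led by SIX2, PBX2, LMX1A, EYA1, GATA2 and GATA3. A total of 16 of the 63 genes had at least 1 RPKM in both libraries, and 1 further gene, DLX3, had it only in the R/r library. The 6 leading genes held 72.9% of the summed RPKM of the family members in R/r and 74.4% in r/r. The sum itself was 463 RPKM in R/r and 430 RPKM in r/r. A further 20 genes were detected below 1 RPKM, and 26 genes were listed at 0 in both libraries. On 1 kilobase of exon, 3 reads would be 0.19 RPKM in R/r and 0.21 RPKM in r/r, so lower levels could be missed. Just inside the minimum of 1 RPKM in either library stood DLX3 at 1.52 and 0.895 RPKM and MSX1 at 1.32 and 1.80 RPKM. Just outside it stood HOXD1 and PBX4, both at 0.868 RPKM in R/r.

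**Figure D1:**
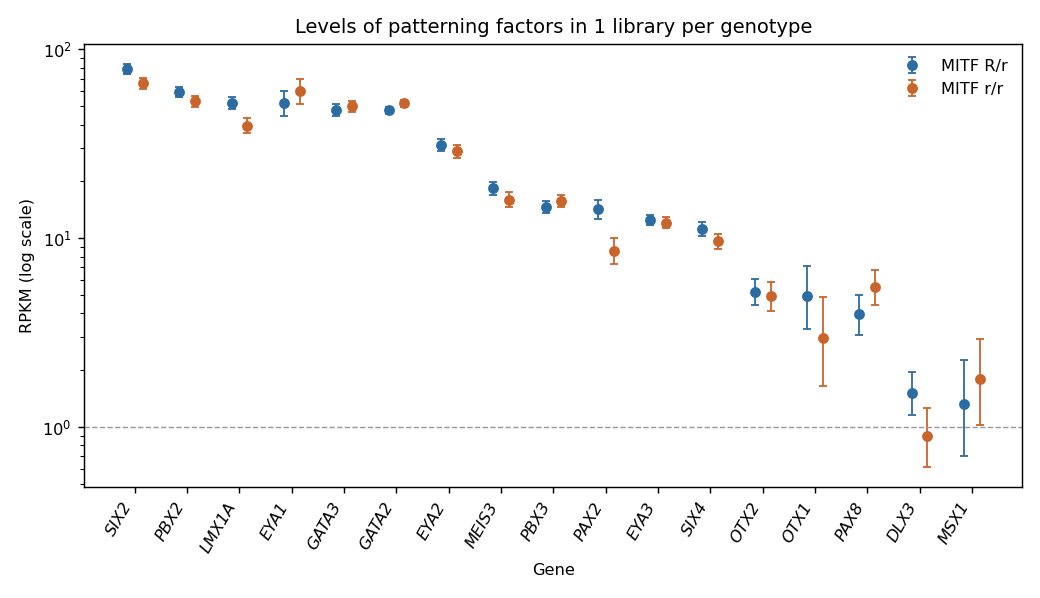
RPKM on a log scale for the 17 genes with at least 1 RPKM in either library, in order of the R/r level, with blue points for the MITF R/r library and orange points for the MITF r/r library. Bars are exact 95% Poisson intervals on the recovered reads, the dashed line marks 1 RPKM, and the order runs from SIX2 at 78.8 and 66.0 RPKM to MSX1 at 1.32 and 1.80 RPKM.

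The minimum of 1 RPKM in either library left 17 genes for comparison, and none of them differed by 2-fold or more. Over all features compared, 3.99% of 16331 differed by that much, 2.20% lower and 1.78% higher in r/r. At 1.5-fold, 3 of the 17 genes differed, DLX3, OTX1 and PAX2, all lower in r/r, beside 10.8% of all features compared either way and 6.31% lower. A looser rule asks only that the counting interval leaves out equal expression, with no minimum fold. By it 9 of the 17 genes differed, against 25.7% of all features compared (14.5% lower and 11.2% higher in r/r). DLX3, PAX2, LMX1A, SIX2, SIX4, MEIS3 and PBX2 were lower in r/r, and PAX8 and GATA2 were higher. The rule calls small differences in genes with many reads, and among features with 400 or more reads 35.5% were called, against 7 of 11 of these genes. The read threshold of 400 was chosen after the values were seen. The median log2 ratio of the 17 genes was -0.11, with a range of -0.76 to 0.48, and the median over all features compared was -0.02. When both libraries were scaled to the same median level, PBX2, MEIS3 and SIX4 were no longer called, which changed the split from 7 lower and 2 higher to 4 lower and 2 higher.

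**Figure D2:**
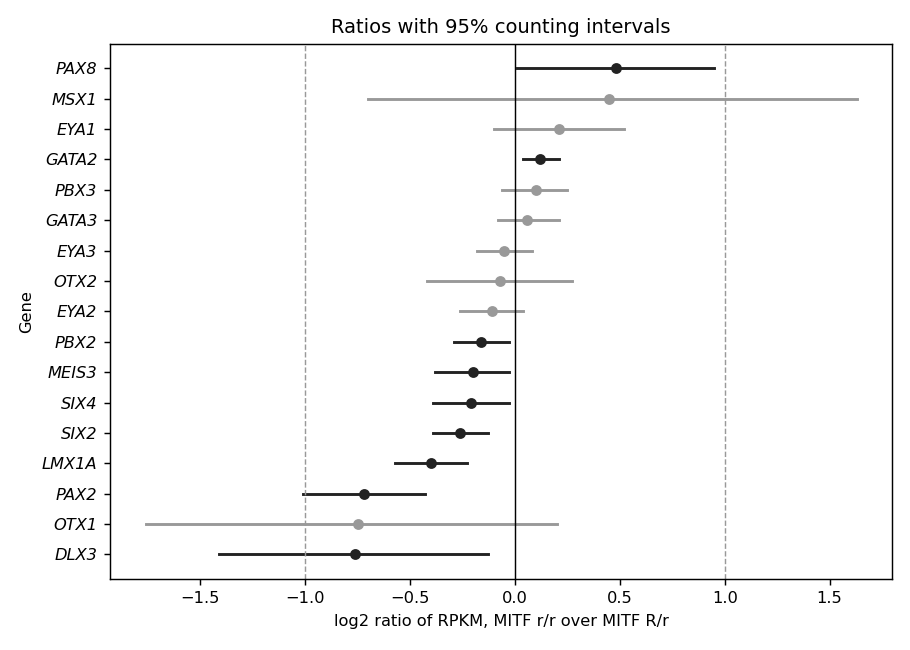
Log2 ratio of RPKM, MITF r/r over MITF R/r, for the 17 genes compared, with lines for 95% counting intervals. Black marks intervals that leave out equal expression and grey those that include it, the dashed lines mark 2-fold, and the 9 black genes run from DLX3 at -0.76 to PAX8 at 0.48.

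SIX2 and SIX4, sine oculis homeobox factors, were lower in r/r, and SIX2 had the highest RPKM of the 63 genes in both libraries. SIX2, known for holding kidney progenitors undifferentiated, had 78.8 RPKM in R/r and 66.0 RPKM in r/r. This was a log2 ratio of -0.26 (95% interval -0.39 to -0.13) on 1123 and 847 reads. SIX4, which is also expressed in embryonic muscle, had 11.2 RPKM in R/r and 9.62 RPKM in r/r, a log2 ratio of -0.21 (-0.39 to -0.03). The RPKM of SIX2 was 7.07 times that of SIX4 in R/r and 6.86 times in r/r. SIX6, an eye and pituitary factor, stayed below 1 RPKM with 8 and 9 reads.

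The EYA coactivators, which carry a phosphatase domain and are recruited to DNA by sine oculis homeobox proteins, were all expressed and none was called. EYA1, the branchio-oto-renal syndrome gene, had 51.9 RPKM in R/r and 59.9 RPKM in r/r. The interval of its log2 ratio of 0.21 ran from -0.10 to 0.52 on 175 and 182 recovered reads, and would be narrower if the true reads are a multiple of these. EYA2 had 31.1 and 28.8 RPKM, with a log2 ratio of -0.11 (-0.26 to 0.04). EYA3 had 12.5 and 12.1 RPKM, with a log2 ratio of -0.05 (-0.18 to 0.08). EYA4, another deafness gene of this family, was not analysed here.

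GATA3 and GATA2, zinc finger factors, stood at nearly equal levels in both libraries. GATA3, whose haploinsufficiency in humans joins deafness with hypoparathyroidism and renal defects, had 47.8 RPKM in R/r and 49.9 RPKM in r/r. The log2 ratio of 0.06 (-0.08 to 0.21) was not called. GATA2, best known from blood stem cells and mast cells and also used in the vestibular system, had 47.5 and 51.7 RPKM. Its log2 ratio of 0.12 (0.04 to 0.21) was called higher in r/r.

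LMX1A and PAX2 showed the largest differences among those of the 63 genes above 10 RPKM in the R/r library, both lower in r/r. LMX1A, a LIM homeobox factor of the non-sensory otic epithelium, had 52.1 RPKM in R/r and 39.5 RPKM in r/r. Its log2 ratio was -0.40 (-0.57 to -0.23), from 734 and 501 reads. LMX1B, its paralogue of limb, kidney and midbrain, had 1 read in R/r and was listed at 0 in r/r.

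PAX2, a paired box factor of the cochlear duct and kidney, had 14.2 RPKM in R/r and 8.61 RPKM in r/r. Its log2 ratio was -0.72 (-1.01 to -0.43), from 281 and 154 reads. PAX8, which acts beside PAX2 in the otic placode and in thyroid and kidney, was higher in r/r, with 3.95 and 5.52 RPKM. The interval of its log2 ratio of 0.48 ran from 0.01 to 0.95, on 70 and 88 reads. The RPKM of PAX2 was 3.58 times that of PAX8 in R/r and 1.56 times in r/r. The other PAX genes were at trace levels. PAX9, a factor of pharyngeal pouches and teeth, had 0.214 and 0.175 RPKM, PAX5, of B cells, had 0.0537 and 0.0596 RPKM, PAX4 and PAX6 had 1 read each in r/r alone, and PAX1 was listed at 0 in both.

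The cofactors PBX2, PBX3 and MEIS3 had levels far above any HOX gene. PBX2 had 59.2 RPKM in R/r and 53.0 RPKM in r/r, a log2 ratio of -0.16 (-0.29 to -0.03). PBX3 had 14.7 and 15.7 RPKM, with a log2 ratio of 0.10 (-0.06 to 0.25), and PBX4 had 21 and 16 reads. MEIS3 led its family at 18.4 and 16.0 RPKM, with a log2 ratio of -0.20 (-0.38 to -0.03). MEIS2 stayed below 1 RPKM, with 13 reads in R/r and 6 reads in r/r. MEIS1 was not analysed here.

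Among the genes of the DLX, OTX, MSX and PITX families, DLX3 was the only one called. DLX3, a distal-less factor of placodes, teeth, hair and bone, had 1.52 RPKM in R/r and 0.895 RPKM in r/r. Its log2 ratio was -0.76 (-1.41 to -0.13), from 62 and 33 reads. OTX1, needed in mice for the lateral semicircular canal, had 4.95 and 2.95 RPKM. Its log2 ratio of -0.75 rested on 28 and 15 reads, and the interval of -1.76 to 0.20 held equal expression. OTX2, a forebrain and cochlear roof factor, had 5.19 and 4.94 RPKM, with a log2 ratio of -0.07 (-0.42 to 0.27). MSX1, a factor of tooth and palate mesenchyme, had 13 reads in R/r and 16 in r/r, and its log2 ratio of 0.45 had an interval of -0.70 to 1.63. DLX2 had 1 read in R/r and 2 reads in r/r, DLX1 had 1 read in R/r and none in r/r, and PITX3, an eye and dopaminergic neuron factor, was listed at 0 in both.

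HOX genes were close to silent in the lateral wall. None of the 34 HOX genes reached 1 RPKM in either library, and 24 of them were listed at 0 in both. Reads were found mainly on low paralogue groups, those used in the hindbrain and pharyngeal arches. Groups 1 to 3 summed to 3.03 RPKM in R/r and 0.918 RPKM in r/r, on 55 and 15 reads. Groups 4 to 8 summed to 0.882 and 0.067 RPKM, on 10 and 2 reads. Of the 13 genes in groups 9 to 13, which pattern the trunk and limbs, 12 were listed at 0 in both libraries and HOXD9 had 1 read in R/r.

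**Figure D3:**
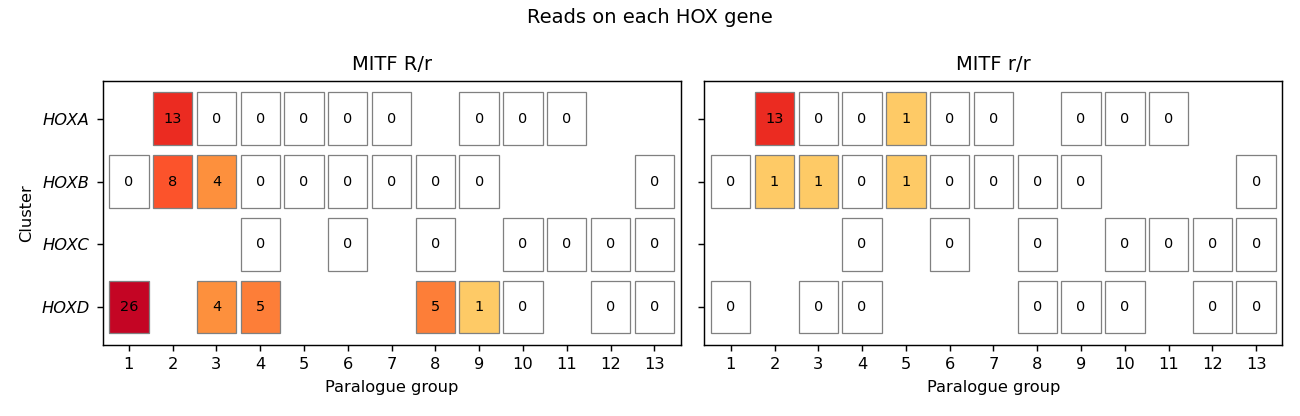
Recovered reads on each of the 34 HOX genes, with clusters in rows and paralogue groups in columns, for MITF R/r on the left and MITF r/r on the right. Darker cells hold more reads, blank positions are groups with no gene described here, and the HOXD row holds 41 reads on the left and 0 on the right.

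The clusters did not share 1 pattern. HOXA2, the selector gene of the second pharyngeal arch, was the HOX gene with the highest level in r/r and was level between the libraries, at 0.719 RPKM in R/r and 0.798 RPKM in r/r with 13 reads in each. Its log2 ratio was 0.15 (-1.08 to 1.38). HOXA5 had 1 read in r/r. HOXB2, a hindbrain gene, had 0.476 and 0.066 RPKM from 8 reads and 1 read, and the interval of its log2 ratio of -2.85 ran from -8.32 to 0.05. HOXB3 had 4 reads and 1 read. HOXB5 had 1 read, in r/r. The whole HOXB cluster had 12 reads in R/r and 3 reads in r/r. Its log2 ratio of -1.85 had an interval of -4.31 to 0.04, which held equal expression. HOXB2 and HOXB3 without HOXB5, a pair chosen after the values were seen, had 12 and 2 reads, a log2 ratio of -2.43 (-5.64 to -0.27). All 7 HOXC genes were listed at 0 in both libraries. Without a minimum RPKM, 26 family members could be compared, and 3 of them, HOXB2, HOXB3 and DLX2, differed by 2-fold or more on 1 to 8 reads, beside 7.67% of all features.

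The HOXD cluster was detected in the R/r library and listed at 0 throughout in r/r. HOXD1 had 0.868 RPKM in R/r on 26 reads. HOXD3 had 0.773 RPKM on 4 reads, HOXD4 had 0.408 RPKM on 5 reads and HOXD8 had 0.474 RPKM on 5 reads. HOXD10, HOXD12 and HOXD13 were listed at 0 in both libraries. Together the 8 HOXD genes had 41 reads in R/r (95% Poisson interval 29.4 to 55.6) and none in r/r, where a count of 0 allows up to 3.69 reads. By the end of the 95% interval of the ratio nearest to equal expression, the level in r/r was at least 9.57-fold lower for the cluster and at least 5.91-fold lower for HOXD1 alone. These bounds cover counting error only, and the cluster and HOXD1 were singled out because they were listed at 0 in r/r.

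Among all features above 0 in R/r, 4.01% were listed at 0 in r/r, and 3.52% of those above 0 in r/r were listed at 0 in R/r. For features of the same low level, with at least 5 reads and below 1 RPKM in R/r, the share listed at 0 in r/r was 1.30% of 1924 features, and 3 of the 25 were HOXD1, HOXD4 and HOXD8. With at least 20 reads it was 0.394% of 508 features, namely HOXD1 and CDH19, a cadherin of the Schwann cell precursor lineage, which had 32 reads in R/r. These read thresholds were chosen after the values were seen, and the genes of a cluster lie side by side, so that they are not separate pieces of evidence. Both classes were defined by reads in R/r, the library where HOXD was detected, and no matching class was counted from r/r. These shares therefore do not measure how unusual the HOXD difference was.

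Genes beside the HOXD cluster, in the gene order of RefSeq, were near level between the libraries. ATF2 had 25.6 and 26.4 RPKM, ATP5G3 had 189 RPKM in both, MTX2 had 20.7 and 21.5 RPKM and HNRNPA3 had 110 and 107 RPKM. Further out, NFE2L2 had 128 and 136 RPKM and was called higher in r/r, with a log2 ratio of 0.09 (0.03 to 0.16), and AGPS had 14.4 and 15.5 RPKM. LNPK, which also lies beside the cluster, was not analysed here. EVX2, the homeobox gene at the HOXD13 end, was listed at 0 in both. The 34 HOX genes summed to 66 reads in R/r and 17 reads in r/r, a log2 ratio of -1.81 (-2.67 to -1.02). Without the HOXD cluster the sums were 25 and 17 reads, with a log2 ratio of -0.41 and an interval of -1.39 to 0.54 that held equal expression. HOXD was left out because it was listed at 0 in r/r, so a smaller difference in the remainder followed from that choice.

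Other factors of otic and pharyngeal patterning had a similar spread. Of 38 such genes listed, 30 had a value and 17 were compared, none at least 2-fold apart. By interval 6 were lower and 2 higher, beside 14.5% lower and 11.2% higher over all features compared. Either way, 25.7% of all features compared were called, and 35.5% of those with 400 or more reads. The 17 genes had a median of 845 reads over both libraries and a median log2 ratio of -0.07. TBX2 and TBX3, T-box repressors, were lower in r/r, at 20.2 and 13.5 RPKM for TBX2 and at 13.5 and 9.48 RPKM for TBX3. HMX3, a vestibular homeobox factor, had 18.9 and 13.9 RPKM, and DACH1, a partner of the EYA proteins, had 7.53 and 5.31 RPKM. ESRRB, a nuclear receptor of marginal cells, and SALL1 were also lower. TBX18, a factor of otic mesenchyme, was higher, at 172 and 205 RPKM with a log2 ratio of 0.25 (0.22 to 0.29), as was ZIC2 at 212 and 224 RPKM. POU3F4, the X-linked deafness factor of otic mesenchyme, was level at 54.2 and 52.6 RPKM.

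Of the homeobox factors of mesenchyme and other tissues, 31 of 33 had a value and 19 were compared, with a median log2 ratio of 0.03. ALX1, a factor of frontonasal mesenchyme, was the only one at least 2-fold apart, at 1.42 RPKM in R/r and 0.50 RPKM in r/r, a log2 ratio of -1.50 (-2.97 to -0.22) on 22 and 7 reads. By interval 2 genes were lower, ALX1 and TSHZ2, and 1 was higher, ADNP, beside 14.5% and 11.2% of all features compared. Of the HOX and PBX cofactors and regulators, 16 of 20 had a value and 14 were compared, none at least 2-fold apart, with a median of -0.01. The Polycomb genes RING1 and RNF2 were called higher, with TGIF1, and PBXIP1 and ZBTB16 lower. These calls made up 35.7% of the 14 genes, beside 25.7% of all features compared. EGR2, the hindbrain and Schwann cell factor, was below the minimum, with 21 reads in R/r and 6 reads in r/r.

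Retinoic acid is the classical inducer of the low HOX groups. Of 18 genes for its synthesis, transport, receptors and breakdown, 16 had a value and 11 were compared, with a median log2 ratio of -0.06. By interval 3 of the 11 were lower and 3 higher, beside 14.5% and 11.2% of all features compared. STRA6, the cellular receptor for retinol carried by its plasma binding protein, was the only one of the 11 at least 2-fold apart. It had 3.49 RPKM in R/r and 10.4 RPKM in r/r, a log2 ratio of 1.57 (1.30 to 1.84) on 158 and 422 reads. The synthesis enzymes ALDH1A1 and ALDH1A2 were also called higher, at 533 and 622 RPKM and at 3.34 and 4.73 RPKM. Below the minimum, the third such enzyme, ALDH1A3, had 25 and 9 reads, a log2 ratio of -1.32 (-2.61 to -0.18), and the receptor RXRG had 16 and 3 reads, with an interval of -4.69 to -0.46. CRABP1 and CRABP2, which bind retinoic acid in the cell, and the receptor RARA were called lower.

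**Figure D4:**
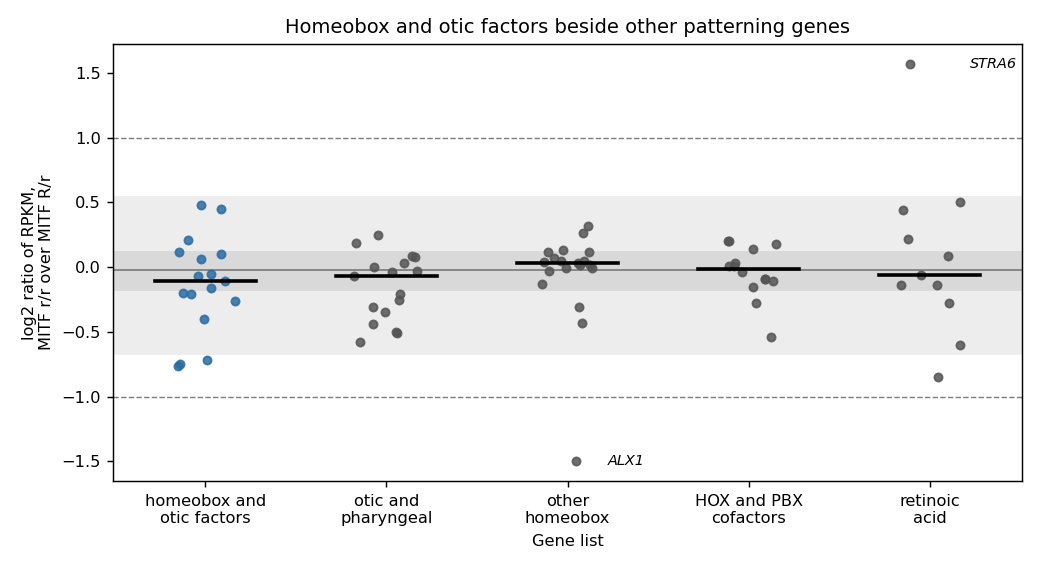
Log2 ratio of RPKM, MITF r/r over MITF R/r, for the homeobox and otic factors (blue) and 4 lists of other patterning genes (grey points), each point a gene with at least 1 RPKM in either library and above 0 in both. Thick bars are medians, the dark and light bands hold the central 50% and 90% of all features compared, dashed lines mark 2-fold, and only ALX1 at -1.50 and STRA6 at 1.57 lie outside them.

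Markers of other cell types also differed between the libraries, and their part in the differences above was not tested. Of 12 melanocyte markers 10 were compared and 8 were at least 2-fold lower in r/r, with summed levels of 313 and 12.0 RPKM, and MLANA was listed at 0 in r/r. The 3 features named MITF were each lower in r/r, with log2 ratios of -0.51, -0.45 and -0.48, and gene RPKM does not separate the isoforms. Also at least 2-fold lower were 3 of 12 bone, 2 of 5 muscle and 1 of 5 Schwann cell markers compared, and none of these was 2-fold higher. Over all features compared, 2.20% were at least 2-fold lower. The counts that follow are by interval, which called 25.7% of all features compared and 35.5% of those with 400 or more reads. Of 12 bone markers 11 were lower and 1 higher, with sums of 1066 and 697 RPKM. Of 8 cartilage markers compared 6 were lower, with sums of 8594 and 7350 RPKM. Of 5 marginal cell markers 4 were lower and 1 higher, with sums of 1586 and 1168 RPKM, and of 5 fibrocyte and basal cell markers 2 were lower and 2 higher, with sums of 9189 and 7590 RPKM. Most of the latter sums was COCH, at 6826 and 4914 RPKM. The summed reads of the same 5 markers went the other way, with a log2 ratio of 0.13 (0.12 to 0.14). Of 6 otic sensory epithelium markers compared 3 were lower and 1 higher, with sums of 62.0 and 50 RPKM, and SLC17A8 and ATOH1, of hair cells, had 1 read each in R/r and were listed at 0 in r/r. Of 5 blood markers compared 3 were lower, with sums of 3051 and 2464 RPKM. Of 5 Schwann cell markers compared 1 was lower and 1 higher, with sums of 6230 and 6410 RPKM. Of 5 muscle markers compared 2 were lower and 1 higher, with sums of 45.5 RPKM in each library, and the 9 neuron markers with a value summed to 4.34 and 4.19 RPKM. STMN2, the only neuron marker compared, was lower, with 51 and 25 reads, whereas NEFL, below the minimum, had 3 reads in R/r and 35 reads in r/r.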

How the data were processed

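Total RNA of the lateral wall was sequenced as paired reads by the authors, who aligned them to Sscrofa10.2 with TopHat2 (2.0.7, from the submitters' processing notes and the methods). The authors deposited 1 table of RPKM values, already scaled to exon length and library depth; the counting program, the strand setting and the gene annotation are not given in the sources used here. The table's 2 further value columns, without headings, were not used. Symbols came from the deposited table for 16376 features and from Ensembl names for 1794, and 9452 stayed unnamed. Names through Ensembl gave HOXA9, HOXC10 and MEIS2. Of 2 features named MSX1 the one with the higher mean RPKM was used. Some genes that fit the names chosen are not reported here and enter no count of members.

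Genes above 0 in both libraries with at least 1 RPKM in either were compared by log2 ratio. Members and gene lists were chosen with earlier results of these data known. Values are given for members at least 2-fold apart, members whose 95% interval leaves out equal expression, the highest member of each family or HOX cluster, members around 1 RPKM, and LMX1A, EYA1, GATA3, PAX2 and PAX8; other genes were named after their values were seen. The lists cover otic and pharyngeal factors, other homeobox factors, HOX and PBX cofactors, retinoic acid, and markers of melanocytes, marginal cells, fibrocytes and basal cells, bone, cartilage, muscle, neurons, Schwann cells, blood and otic sensory epithelium.

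The reads behind each value were worked out through the commonest ratio of low values, 1.11, shared by 736 features, and library totals were chosen to make exon lengths whole, which held for 68% of 3000 features used. All 20862 features above 0 (100%) could be given reads. Among 12 mitochondrial genes, 4 were within 3 bases of their RefSeq length. The true reads may be a multiple of those found, and the intervals are then too wide. In simulated data for r/r over R/r on 20402 genes, 84.7% of genes above 0 in both libraries had exact reads, and 97% of intervals held the true ratio. Whether changes below 2-fold, or on as few reads as the HOX genes had, would be called was not tested. PCR copies are not independent molecules. Promoter sequences were not analysed here, and RefSeq annotation of a later assembly, Sscrofa11.1, gave only gene order. Alternatives were pseudocounts of 0.1 and 1 RPKM, no minimum and a minimum of 5 RPKM, a 1.5-fold threshold, scaling by the median or upper quartile, every feature counted, and deposited symbols alone. Computation was in Python 3.11.15 with pandas 2.3.3, scipy 1.17.1, matplotlib 3.10.9 and numpy 2.4.6.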

Additional observations from a re-analysis of the deposited data

How the results depend on the processing

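No paired analysis was possible because each genotype had 1 library, and no library could be left out. The count of family members at least 2-fold apart, 0 as reported, was 3 with no minimum RPKM (DLX2, HOXB2 and HOXB3, on 1 to 8 reads), where 7.67% of all features were that far apart, and 3 at a threshold of 1.5-fold (DLX3, OTX1 and PAX2, all lower, beside 6.31% of all features lower). It remained 0 under the other alternatives. The median log2 ratio of -0.11 became -0.06 when the libraries were scaled to the same median, which removed a shift of -0.05. The count of members whose interval left out equal expression, 9 as reported, ranged from 6 to 9. The 68 values of single members under the pseudocounts and scalings all lay within their intervals, and 0 of those called were reversed. A pseudocount cannot reverse a ratio, and the scalings removed shifts of only -0.05 and -0.01. This outcome was therefore largely set by the choice of alternatives. Members at 1 RPKM in both libraries numbered 16, against 20 at 0.5 RPKM and 12 at 5 RPKM. Alternatives chosen after seeing the data gave, for the other patterning genes at least 2-fold apart, 2 as reported, 4 at 1.5-fold, 8 with no minimum, 1 with a minimum of 5 RPKM and 1 with 1 RPKM added to each value. They also gave a log2 ratio of summed HOX reads of -0.41 without the HOXD cluster and -1.08 without HOXD1. No HOX gene had more than 26 reads in a library, which limits what can be said of them.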

Other observations

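Genes on either side of the other HOX clusters were looked at in the gene order of RefSeq. Beside the HOXA cluster, TAX1BP1, an autophagy receptor, had 178 RPKM in R/r and 201 RPKM in r/r, a log2 ratio of 0.18 (0.12 to 0.23), and HIBADH, a valine breakdown enzyme, had 56.8 and 64.2 RPKM. Beside the HOXB cluster, CALCOCO2, another autophagy receptor, had 51.4 and 61.6 RPKM, a log2 ratio of 0.26 (0.18 to 0.34), whereas CBX1 had 35.9 and 37.5 RPKM with an interval of -0.02 to 0.15. Beside the HOXC cluster, NPFF, which encodes a neuropeptide, had 9.98 RPKM in R/r and 3.83 RPKM in r/r on 55 and 19 reads, a log2 ratio of -1.38 (-2.22 to -0.61). Its neighbours ATF7, at 21.7 and 21.9 RPKM, and CALCOCO1, at 120 and 115 RPKM, were level between the libraries. These genes were named after their values were seen.

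A second feature described as MSX1 in the table had 0.776 RPKM in R/r and 0.646 RPKM in r/r, below the minimum and on the opposite side of equal expression from the feature used, and which of them is MSX1 was not tested.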
